A study of Mus musculus with 12 samples.

Results

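The sarcomere and Z-disc genes are 35 genes for the contractile apparatus of striated muscle, taken from a fixed list of symbols and found among the 23042 entries of each of 2 expression tables, 1 for heart ventricles and 1 for epididymal white adipose tissue (EWAT). All 35 symbols had an entry in both tables. RNA was sequenced from MED13cTg mice, which overexpress the Mediator subunit MED13 in the heart, and from their wild-type (WT) littermates, with 3 mice per genotype and tissue. All were C57BL/6 males of 6 weeks that ate normal chow freely, and the tissue was taken in the fed state in the late afternoon. WT and MED13cTg mice differed by the transgene alone as far as the labels say, the promoter that drives it is not given in the sources used here, and each library came from whole tissue. Levels are FPKM (fragments per kilobase of transcript, scaled to the mapped fragments of a library), a scale corrected for gene length, so that genes can be ranked within a tissue.

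The sarcomere is the repeating unit of the myofibril. Actin thin filaments are anchored in the Z-disc and slide past myosin thick filaments that are held in register at the M-band, while titin spans the unit from one structure to the other. Calcium binding to the troponin complex on the thin filament starts contraction, and the myosin light chains and myosin-binding protein C tune its force. The Z-disc also carries LIM, ankyrin-repeat and small heat shock proteins that respond to stretch, and muscle RING-finger ubiquitin ligases act at the M-band and Z-disc on worn proteins. Many of these genes are controlled by serum response factor, MEF2 and TEAD factors through short sites near their starts.

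Promoters are shown for the members whose MED13cTg and WT ventricle libraries did not overlap and which have a single start in the table, because their values in the 2 genotypes are set side by side further on, although none of them passed the test. The sequences are those of RefSeq on the assembly GRCm38.p6, from 250 bases before to 50 bases after the start, on the strand of the gene. They are Actc1 (chr2:114052826-114053125, minus strand), Myom1 (chr17:71019307-71019606, plus strand), Myoz2 (chr3:123034938-123035237, minus strand) and Trim54 (chr5:31116362-31116661, plus strand). Capitals mark a CArG box, the letters bound by serum response factor, and TATAAA in Actc1, a CArG box in Myom1, a MEF2 motif in Myoz2, and 2 copies of the M-CAT core CATTCC of TEAD factors in Trim54, the second of them on the other strand. The TATAAA of Actc1 begins at base 284 of its window and so lies after the listed start.
Actc1: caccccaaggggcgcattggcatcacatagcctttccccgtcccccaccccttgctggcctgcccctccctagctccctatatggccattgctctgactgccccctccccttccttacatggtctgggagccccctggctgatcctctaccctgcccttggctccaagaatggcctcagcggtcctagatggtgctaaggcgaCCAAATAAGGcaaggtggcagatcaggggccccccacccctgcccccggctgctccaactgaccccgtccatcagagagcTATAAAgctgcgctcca
Myom1: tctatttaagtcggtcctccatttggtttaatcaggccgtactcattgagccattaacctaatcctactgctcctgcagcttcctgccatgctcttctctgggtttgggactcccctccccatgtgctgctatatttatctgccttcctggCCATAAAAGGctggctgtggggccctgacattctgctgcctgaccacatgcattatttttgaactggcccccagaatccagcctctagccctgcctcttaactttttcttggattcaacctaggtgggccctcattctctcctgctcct
Myoz2: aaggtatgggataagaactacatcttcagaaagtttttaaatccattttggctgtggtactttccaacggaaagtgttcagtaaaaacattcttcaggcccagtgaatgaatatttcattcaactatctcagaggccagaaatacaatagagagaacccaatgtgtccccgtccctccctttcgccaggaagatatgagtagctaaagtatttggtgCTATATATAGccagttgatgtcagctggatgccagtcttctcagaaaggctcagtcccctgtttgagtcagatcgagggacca
Trim54: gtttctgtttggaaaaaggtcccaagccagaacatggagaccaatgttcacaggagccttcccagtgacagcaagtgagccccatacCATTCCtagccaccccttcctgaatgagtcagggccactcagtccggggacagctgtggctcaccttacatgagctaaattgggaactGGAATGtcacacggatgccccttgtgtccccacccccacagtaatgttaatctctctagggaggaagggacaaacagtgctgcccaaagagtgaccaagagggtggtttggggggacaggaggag

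Of the 35 members, 29 had a promoter in that table and 6 (Myom2, Tcap, Cryab, Xirp1, Trim55 and Myot) did not. Each motif was searched on both strands in every listed start of a gene, and a gene counted once. The CArG box was found in 7 of the 29 members (24.1%; Actc1, Acta1, Myl3, Myom1, Ldb3, Nebl and Fhl2) and in 488 of all 27025 genes (1.81%). The MEF2 motif was found in 6 members (20.7%) and in 3.7% of all genes, and CATTCC in 12 members (41.4%) and in 16.6%. TATAAA, which can lie within either of the first 2 motifs, was found in 7 members (24.1%) and in 15.7% of all genes. Of the 3 members with promoters that lay below WT and are printed, each carried a different motif, and Actc1, above WT, shared the CArG box with Myom1, below WT. These matches describe the letters in the window and not binding.

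In WT ventricles the members spanned more than 3 orders of magnitude. The ventricular regulatory light chain Myl2 was highest, with a mean of 21025 FPKM ± 1745 (SD, n = 3), followed by the tropomyosin Tpm1 at 13949 ± 2166, the essential light chain Myl3 at 12087 ± 1447 and cardiac troponin T, Tnnt2, at 10783 ± 2063. Neighbours among the last 3 differed by less than the larger of their SDs, whereas Myl2 stood apart from Tpm1. Troponin I (Tnni3) at 8573 FPKM ± 1191, cardiac actin (Actc1) at 7619 ± 894 and troponin C (Tnnc1) at 5308 ± 367 came next. The lowest was the Z-disc protein myotilin, Myot, at 10.4 FPKM ± 0.516. Altogether 15 members had a WT mean of at least 1000 FPKM, 28 of at least 100 and 7 less than 100. The coefficient of variation over the 3 WT mice ran from 3.32% to 64.6% with a median of 15%, so that single members differed widely in how closely littermates matched. Summed over the list, the members took 9.94%, 11.5% and 12.1% of all FPKM in the WT libraries and 11%, 13.5% and 13.5% in the MED13cTg libraries, and the genotypes overlapped.

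**Figure D1:**
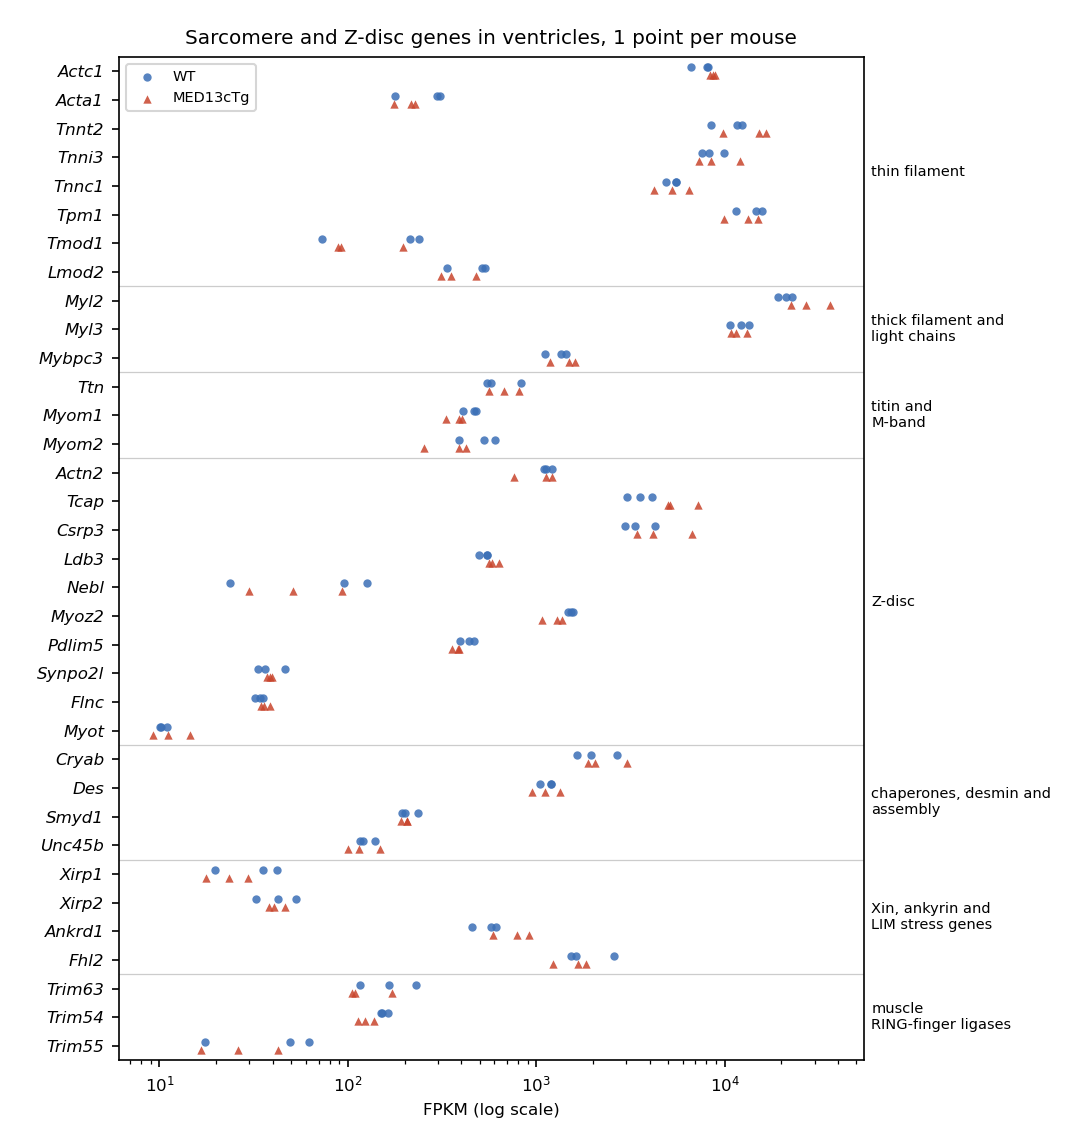
FPKM of each sarcomere and Z-disc gene in ventricles on a log scale, with 1 circle per WT mouse and 1 triangle per MED13cTg mouse, grouped by role. Circles and triangles overlap for 28 of the 35 genes, and the level of a gene sets its place far more than the genotype does, from Myot at a WT mean of 10.4 FPKM to Myl2 at 21025 FPKM.

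Several features of the whole ventricle set bear on these values. The transgene was visible as Med13, at 13.1, 10.6 and 11.5 FPKM in WT mice, against 263, 181 and 204 FPKM in MED13cTg mice (log2 fold change 4.08, SE 0.17, limma adjusted p = 0.000281). Total read counts are unknown, and the relative depth read from the smallest FPKM steps lay between 0.918 and 1.02 of WT replicate 1. By rank correlation over all genes, WT replicate 1 was most like MED13cTg replicates 1 and 2, and MED13cTg replicate 3 most like the 2 remaining WT libraries, which gives 2 clusters of 3 libraries that do not follow genotype. The 8 ventricular myocyte markers summed to between 57820 and 86319 FPKM. Myl2, Myl3, Tnnt2 and Tnni3 are among these markers and are members too, so the sum consists largely of the members' own values. Of the markers outside the list, Ryr2 lay below WT without overlap, at 466, 473 and 365 FPKM in WT mice, against 330, 354 and 284 FPKM in MED13cTg mice. Pln, Nppb and the joined entry of Myh6 and Myh7 overlapped. The 6 atrial markers summed to 448 to 746 FPKM in WT and 998 to 2454 FPKM in MED13cTg ventricles, without overlap, and among them Nppa was the gene whose genotypes did not overlap, while Myl4, Myl7, Sln and Mybphl were each highest in MED13cTg replicate 2 and Bmp10 was listed at 0 in all libraries except that one. In whole tissue, fewer cells of a type and less RNA per cell cannot be told apart, and the part of these features in the values of the members was not tested except where a value is given.

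Cardiac overexpression of MED13 was compared with WT to ask whether the transcripts of the contractile apparatus differed in the ventricles. None of the 35 members passed the test (limma on log2(FPKM + 1), Benjamini-Hochberg adjusted p under 0.05 over 12589 genes), against 0.0556% of all genes tested (7 genes). The adjusted p ran from 0.966 to 0.996. At an unadjusted p under 0.05 there were 2 members (5.71%), Tcap and Trim54, against 4.73% of all genes, which is close to the background. The median log2 fold change was -0.03 for the members and -0.014 for all genes, with 14 members positive and 21 negative, and the range ran from -0.51 for Myom2 to 0.69 for Tcap. The MED13cTg libraries all lay above the WT libraries for 3 members (8.57%; Actc1, Tcap and Ldb3), against 3.46% of all genes, and all below for 4 members (11.4%; Myom1, Myoz2, Pdlim5 and Trim54), against 5.85%. Together 20% of the members and 9.31% of all genes were without overlap.

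**Figure D2:**
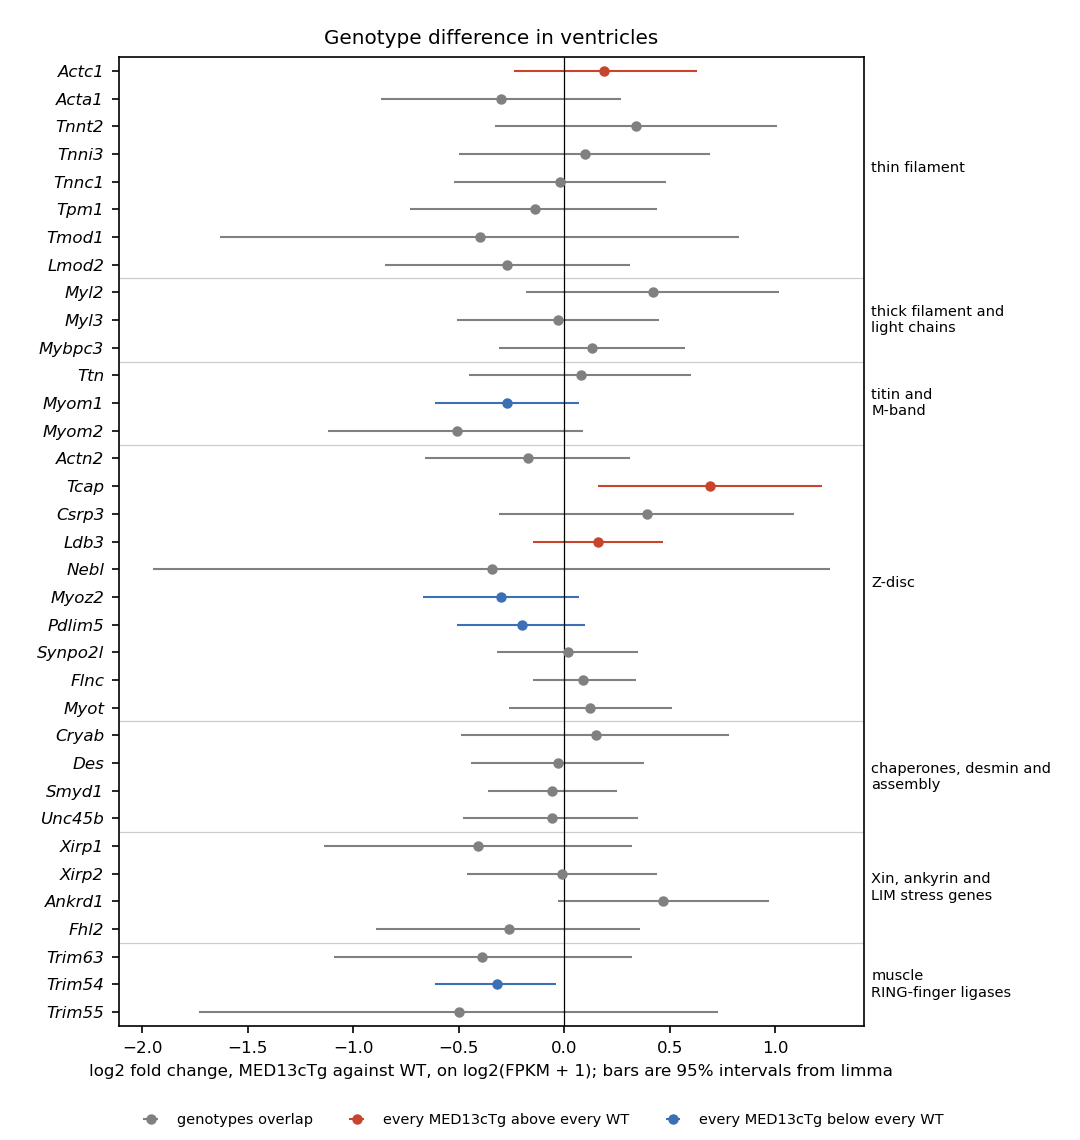
Log2 fold change of each member, MED13cTg against WT ventricles, on the log2(FPKM + 1) scale, with bars for the 95% interval from limma (3 mice per genotype). The intervals of Tcap (0.16 to 1.22) and Trim54 (-0.61 to -0.04) exclude 0 before adjustment, and the widest is that of Nebl (-1.95 to 1.26).

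The thin filament has 8 members, of which 1, cardiac actin, was without overlap. Actc1, the actin of the adult cardiac thin filament (chr2:113873025-113878547 on mm9, the build of all gene positions given from here on), was at 8183, 6588 and 8085 FPKM in WT mice, against 8938, 8679 and 8395 FPKM in MED13cTg mice. The lowest MED13cTg library stood just above the highest WT library and WT replicate 2 was the low library. The log2 fold change was 0.19 (SE 0.18, 95% interval -0.24 to 0.63, limma adjusted p = 0.966). Acta1, the skeletal muscle actin that the fetal heart also makes, was at 297, 177 and 307 FPKM in WT mice, against 226, 175 and 217 FPKM in MED13cTg mice, so that its genotypes overlapped. The ratio of Actc1 to Acta1, computed after the values of both genes were seen and given as a description, was 27.6, 37.3 and 26.3 in WT and 39.5, 49.5 and 38.7 in MED13cTg libraries.

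Tpm1, the tropomyosin that covers the myosin sites on actin, was at 11528, 14619 and 15700 FPKM in WT mice, against 9869, 14940 and 13360 FPKM in MED13cTg mice (log2 fold change -0.14, SE 0.25, 95% interval -0.73 to 0.44, limma adjusted p = 0.969). The ranges overlapped over most of their length. The 3 cardiac troponins also overlapped, with log2 fold changes of 0.34 for Tnnt2 (95% interval -0.33 to 1.01), 0.10 for Tnni3 (-0.50 to 0.69) and -0.02 for Tnnc1 (-0.52 to 0.48). In each of the 3, MED13cTg replicate 2 was the highest library, at 16515 FPKM for Tnnt2, 12093 FPKM for Tnni3 and 6445 FPKM for Tnnc1. The pointed-end capping protein Tmod1 and its relative Lmod2, which set thin filament length, had log2 fold changes of -0.40 and -0.27 with overlapping genotypes, and their libraries split by cluster as described further on. Reads of Tmod1 can also come from Tstd2, which overlaps it and had 174 to 259 FPKM.

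Of the thick filament and light chain genes none was without overlap. Myl2, the regulatory light chain of the ventricle (chr5:122550989-122556863), was at 21238, 19184 and 22654 FPKM in WT mice, against 22362, 36273 and 27135 FPKM in MED13cTg mice. Only MED13cTg replicate 1 fell within the WT range, and MED13cTg replicate 2 held the highest value of any member in any library. The log2 fold change was 0.42 (SE 0.25, 95% interval -0.18 to 1.02, limma adjusted p = 0.966), and over the alternatives in processing it ran from 0.07 to 0.58. Myl3, the essential light chain, differed by -0.03 (95% interval -0.51 to 0.45) and Mybpc3, the cardiac myosin-binding protein C, by 0.13 (-0.31 to 0.57). The ratio of Myl2 to Myl3, again chosen after its values were seen, was 2, 1.58 and 1.68 in WT and 2.07, 3.14 and 2.06 in MED13cTg libraries, so that WT replicate 1 and MED13cTg replicate 3 lay close together.

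Of titin and the 2 M-band genes, 1 was without overlap. Ttn, the spring that links Z-disc and M-band, was at 828, 575 and 551 FPKM in WT mice, against 677, 811 and 562 FPKM in MED13cTg mice (log2 fold change 0.08, SE 0.22, 95% interval -0.45 to 0.60, limma adjusted p = 0.975). Each genotype held a library as low as 551 or 562 FPKM and one as high as 828 or 811 FPKM. Myom1, the M-band protein myomesin that cross-links myosin and titin (chr17:71368241-71476196), was at 408, 468 and 479 FPKM in WT mice, against 331, 388 and 402 FPKM in MED13cTg mice. Every MED13cTg library was lower than every WT library, by a margin of 402 against 408 FPKM at the closest, and the log2 fold change was -0.27 (SE 0.14, 95% interval -0.61 to 0.07, limma adjusted p = 0.966). Myom2, M-protein of the same band, was at 388, 605 and 530 FPKM in WT mice, against 255, 391 and 426 FPKM in MED13cTg mice. WT replicate 1 overlapped the MED13cTg values, and Myom2 had the lowest log2 fold change of the list (-0.51, SE 0.25, 95% interval -1.12 to 0.09, limma adjusted p = 0.966).

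The Z-disc group has 10 members, of which 4 were without overlap, 2 in each direction. Tcap, telethonin, which caps the titin ends in the Z-disc (chr11:98219682-98246267), was at 4094, 3023 and 3548 FPKM in WT mice, against 4997, 7237 and 5135 FPKM in MED13cTg mice. All 3 MED13cTg libraries were above the WT libraries, with a gap smaller than the SD of the MED13cTg libraries (1255 FPKM), and the ratio of the means was 1.63. The log2 fold change was 0.69 (SE 0.22, 95% interval 0.16 to 1.22, limma adjusted p = 0.966). Over the alternatives the log2 fold change stayed between 0.52 and 0.80, and the limma adjusted p ran from 0.0993 to 1. Within the cluster of WT replicate 1 the Tcap log2 fold change was 0.55 and within the other it was 0.65. The locus of this entry holds Stard3 as well, whose own entry had 20.1 to 24.7 FPKM with overlapping genotypes. The ratio of Tcap to Ttn, chosen after the values were seen, was 4.94, 5.26 and 6.44 in WT and 7.38, 8.92 and 9.14 in MED13cTg libraries.

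Ldb3, cypher or ZASP, a PDZ and LIM protein that binds alpha-actinin (chr14:35339885-35401867), was at 550, 497 and 547 FPKM in WT mice, against 582, 638 and 562 FPKM in MED13cTg mice. Its libraries did not overlap but the steps were small, with a log2 fold change of 0.16 (SE 0.13, 95% interval -0.15 to 0.47, limma adjusted p = 0.966). Pdlim5, a relative with the same kinds of domain (chr3:141902549-142058660), was at 394, 441 and 469 FPKM in WT mice, against 383, 357 and 389 FPKM in MED13cTg mice. Here the MED13cTg libraries were the lower ones, with 389 against 394 FPKM at the closest, and the log2 fold change was -0.20 (SE 0.13, 95% interval -0.51 to 0.10, limma adjusted p = 0.966).

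Myoz2, calsarcin-1, which tethers calcineurin to the Z-disc (chr3:122709124-122737905), was at 1538, 1472 and 1572 FPKM in WT mice, against 1070, 1374 and 1288 FPKM in MED13cTg mice. WT littermates were close to each other, with an SD of 50.7 FPKM, and every MED13cTg library was lower. The log2 fold change was -0.30 (SE 0.16, 95% interval -0.67 to 0.07, limma adjusted p = 0.966). The other 6 Z-disc members overlapped. Csrp3, the muscle LIM protein, had a log2 fold change of 0.39 (95% interval -0.31 to 1.09) with 6694 FPKM in MED13cTg replicate 2 and 2963 to 4286 FPKM in the remaining libraries. Actn2, the alpha-actinin that cross-links actin in the Z-disc, had -0.17 (95% interval -0.66 to 0.31). Flnc, filamin C, had the narrowest interval of the 35 members (0.09, 95% interval -0.15 to 0.34), Synpo2l, an actin-bundling relative of synaptopodin, had 0.02 (-0.32 to 0.35) and Myot 0.12 (-0.26 to 0.51).

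**Figure D3:**
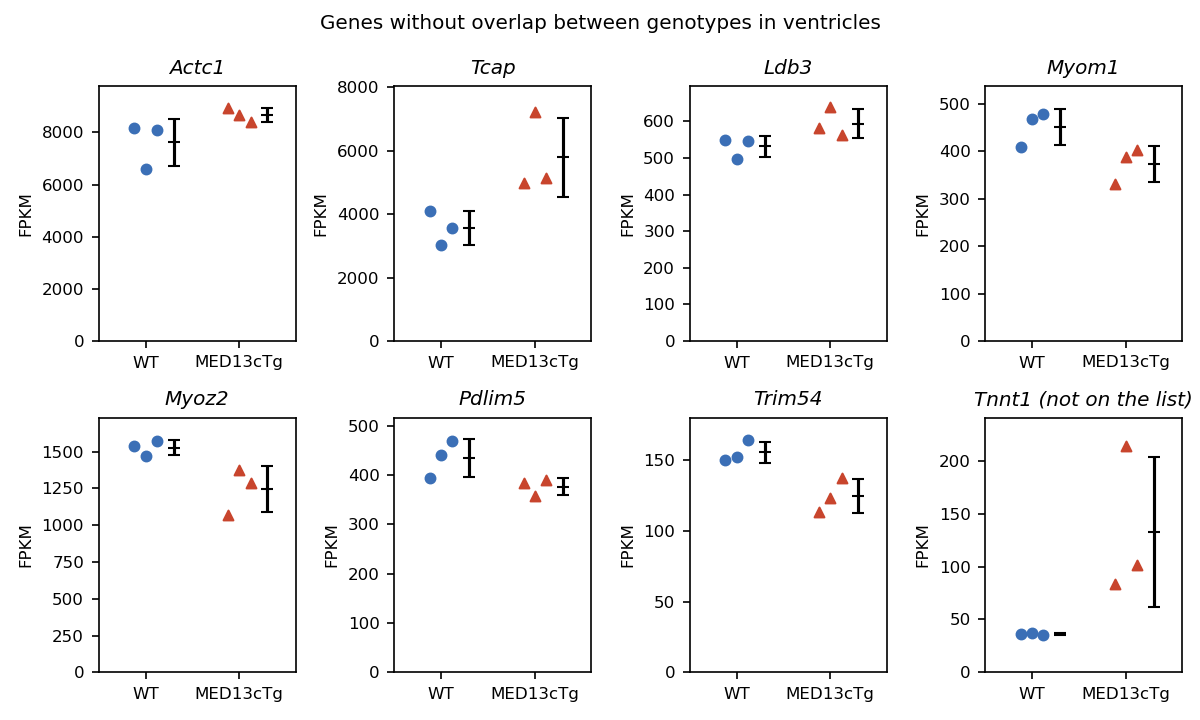
FPKM in each WT (circles) and MED13cTg (triangles) ventricle library for the 7 members whose genotypes do not overlap and for Tnnt1, which is not a member, with the mean and SD at the right of each group (n = 3). Each axis starts at 0. The gap between the nearest WT and MED13cTg libraries is smaller than the SD of at least 1 genotype for all of these genes except Trim54, Tcap and Tnnt1 included.

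The chaperone, desmin and assembly genes had log2 fold changes between -0.06 and 0.15, and none was without overlap. Cryab, the small heat shock protein alpha-B crystallin, was at 2698, 1642 and 1955 FPKM in WT mice, against 2057, 3046 and 1873 FPKM in MED13cTg mice (log2 fold change 0.15, SE 0.27, 95% interval -0.49 to 0.78, limma adjusted p = 0.971). Each genotype held 1 high library, WT replicate 1 and MED13cTg replicate 2. Cryab lies beside Hspb2, whose entry had 111 to 168 FPKM and whose reads may be divided with it. Des, the desmin that links neighbouring Z-discs, differed by -0.03 (95% interval -0.44 to 0.38), Smyd1, a methyltransferase for myofibril assembly, by -0.06 (-0.36 to 0.25), and Unc45b, the myosin chaperone, by -0.06 (-0.48 to 0.35). The Unc45b entry overlaps Slfn5 and 1700003F17Rik, so its reads are less certain.

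Among the Xin, ankyrin and LIM genes that answer to stretch, Fhl2, a LIM protein bound to titin, had the highest WT level. It was at 2578, 1528 and 1632 FPKM in WT mice, against 1657, 1831 and 1222 FPKM in MED13cTg mice (log2 fold change -0.26, SE 0.26, 95% interval -0.89 to 0.36, limma adjusted p = 0.966). WT replicate 1 was the high library and the other 5 lay together. Ankrd1, the cardiac ankyrin repeat protein induced by wall stress (chr19:36186455-36194334), was at 578, 457 and 615 FPKM in WT mice, against 790, 919 and 592 FPKM in MED13cTg mice. The 2 highest values were MED13cTg, but replicate 3 of that genotype was within the WT range. Its log2 fold change was 0.47 (SE 0.21, 95% interval -0.03 to 0.97, limma adjusted p = 0.966), or 0.56 within the cluster of WT replicate 1 and 0.16 within the other cluster. Xirp1, a Xin repeat protein of the intercalated disc, was at 19.7, 35.3 and 42.2 FPKM in WT mice, against 17.6, 23.4 and 29.7 FPKM in MED13cTg mice (log2 fold change -0.41, SE 0.31, 95% interval -1.14 to 0.32, limma adjusted p = 0.966). The genotypes overlapped, and its relative Xirp2 differed by -0.01 (95% interval -0.46 to 0.44).

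The 3 muscle RING-finger ligases had negative log2 fold changes, and none passed the test. Trim54, MURF3, which binds microtubules and the Z-disc (chr5:31418985-31439999), was at 150, 152 and 164 FPKM in WT mice, against 113, 123 and 137 FPKM in MED13cTg mice. WT littermates were close together and every MED13cTg library was lower, with a log2 fold change of -0.32 (SE 0.12, 95% interval -0.61 to -0.04, limma adjusted p = 0.966). Over the alternatives its log2 fold change stayed between -0.39 and -0.26. Trim63, MURF1, the ligase of muscle wasting, was at 116, 231 and 166 FPKM in WT mice, against 109, 105 and 172 FPKM in MED13cTg mice, and the genotypes overlapped (log2 fold change -0.39, SE 0.30, 95% interval -1.09 to 0.32, limma adjusted p = 0.966). Trim55, MURF2, was at 17.4, 49.4 and 62.2 FPKM in WT mice, against 26.1, 16.6 and 42.4 FPKM in MED13cTg mice. They formed a low and a high group of 3 libraries each that did not follow the genotype (log2 fold change -0.50, SE 0.52, 95% interval -1.73 to 0.73, limma adjusted p = 0.966), and that of Trim55 ran from -1.04 without WT replicate 1 to -0.15 without WT replicate 3 and was -0.07 with the cluster as a covariate.

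The same split by library cluster ran through other members. In 10 of the 35 (28.6%; Tmod1, Lmod2, Myl3, Myom2, Nebl, Des, Xirp1, Xirp2, Trim63 and Trim55) WT replicates 2 and 3 and MED13cTg replicate 3 were all above the other 3 libraries, against 17.1% of all genes tested. In 4 (11.4%; Ttn, Csrp3, Cryab and Fhl2) they were all below, against 23.1%. The clusters were made from all genes tested, these included, so the counts are a description. Nebl, nebulette, which links the Z-disc to actin, was at 23.6, 96 and 127 FPKM in WT mice, against 51.2, 29.8 and 92.8 FPKM in MED13cTg mice. Its 3 high libraries were those of 1 cluster, and its SD over WT mice (53.3 FPKM) was the greatest of the list relative to its mean. Tmod1 was at 72.7, 215 and 239 FPKM in WT mice, against 92, 89.2 and 197 FPKM in MED13cTg mice and split in the same way. Within the cluster of WT replicate 1 the median genotype difference of the members was 0.03 on the log2 scale and within the other it was -0.03, and 21 members had the same sign in both, each cluster having a single library of 1 genotype. Of the 35 members, 14 were highest in WT replicate 3 and 12 in MED13cTg replicate 2.

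**Figure D4:**
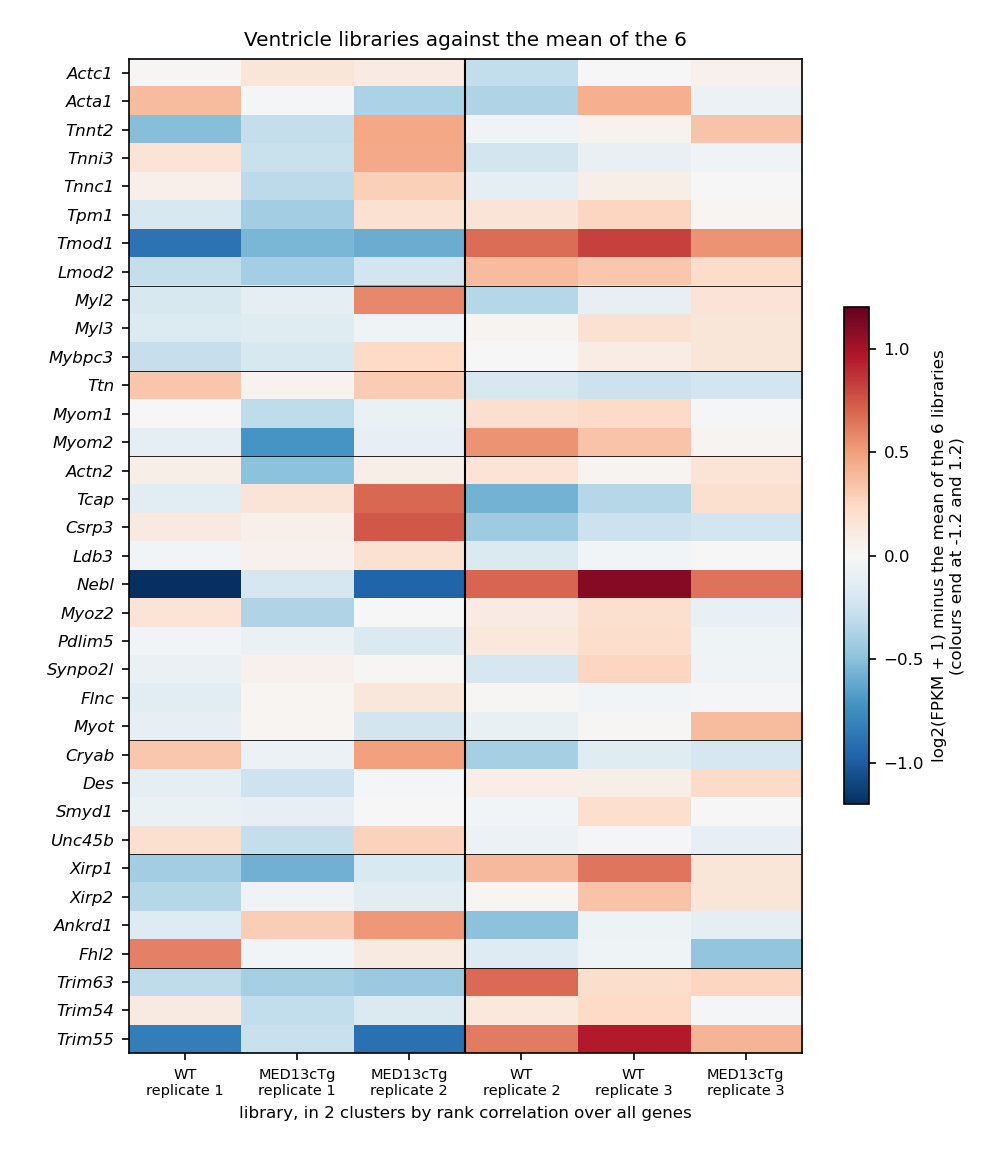
Log2(FPKM + 1) of each member in each ventricle library minus the mean of the 6 libraries (red above, blue below), with the libraries ordered by cluster on either side of the black line. Nebl, Tmod1 and Trim55 change colour at the line, between clusters, rather than between genotypes, while Tcap and Csrp3 are reddest in MED13cTg replicate 2.

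A second list of 47 sarcomere and Z-disc genes outside the 35 gave 46 entries, since the myosin heavy chains Myh6 and Myh7 share one, and 43 of these were tested. None passed the test in ventricles, the smallest limma adjusted p being 0.614. At an unadjusted p under 0.05 there were 10 (23.3%, against 4.73% of all genes), and 14 were without overlap (32.6%, against 9.31%), 6 above WT and 8 below. Tnnt1, the slow skeletal troponin T, was at 36.6, 37.5 and 35.7 FPKM in WT mice, against 83.6, 214 and 101 FPKM in MED13cTg mice. All MED13cTg libraries were above the close-set WT values, with a log2 fold change of 1.71 (SE 0.33, 95% interval 0.92 to 2.49, limma adjusted p = 0.614), the greatest of either list. The ratio of Tnnt2 to Tnnt1, chosen after their values were seen, was 230, 310 and 344 in WT and 117, 77.2 and 150 in MED13cTg libraries, so that the cardiac form remained by far the more abundant per length.

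Mybpc2, the fast skeletal myosin-binding protein C, had 22.4, 10.8 and 17.4 FPKM in WT mice, against 29.8, 33.4 and 30.2 FPKM in MED13cTg mice (log2 fold change 0.90, 95% interval 0.33 to 1.47, limma adjusted p = 0.945). Tnni2, the fast troponin I, had 17.9, 18 and 22.7 FPKM in WT mice, against 33.2, 47.4 and 28 FPKM in MED13cTg mice (log2 fold change 0.83, 95% interval 0.34 to 1.32, limma adjusted p = 0.914). Both were above WT without overlap, while other fast genes of the list were not: the log2 fold change was -0.22 for the troponin T Tnnt3 and 0.07 for the troponin C Tnnc2, both overlapping, and -0.19 for the alpha-actinin Actn3, which lay below WT without overlap. The 11 fast skeletal muscle markers as a whole summed to 279 to 372 FPKM in WT and 216 to 343 FPKM in MED13cTg ventricles, and of these Tnni2 lay above WT and Actn3 below WT without overlap. Hspb7, the cardiovascular heat shock protein, was at 817, 885 and 1061 FPKM in WT mice, against 1236, 1355 and 1510 FPKM in MED13cTg mice (log2 fold change 0.57, SE 0.17, limma adjusted p = 0.945). Its MED13cTg libraries were all above the WT libraries. Tnni1, the slow troponin I of the fetal heart, was lower in each MED13cTg library, at 2.99, 1.53 and 0.859 FPKM in WT against 0.611, 0.84 and 0.37 FPKM (log2 fold change -0.74, SE 0.29, limma adjusted p = 0.966).

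EWAT served as the reference tissue. For 35 of 35 members every ventricle library was above every EWAT library. The tables of the tissues were normalised separately, so this is a description of levels and not a test. The ratio of the ventricle mean to the EWAT mean ran from 11.2 for Unc45b to 14455 for Mybpc3, with a median of 220. In EWAT the members took 0.0274% to 0.0562% of all FPKM, 15 of them had a mean under 1 FPKM, and 6 were listed at 0 in at least 1 library.

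**Figure D5:**
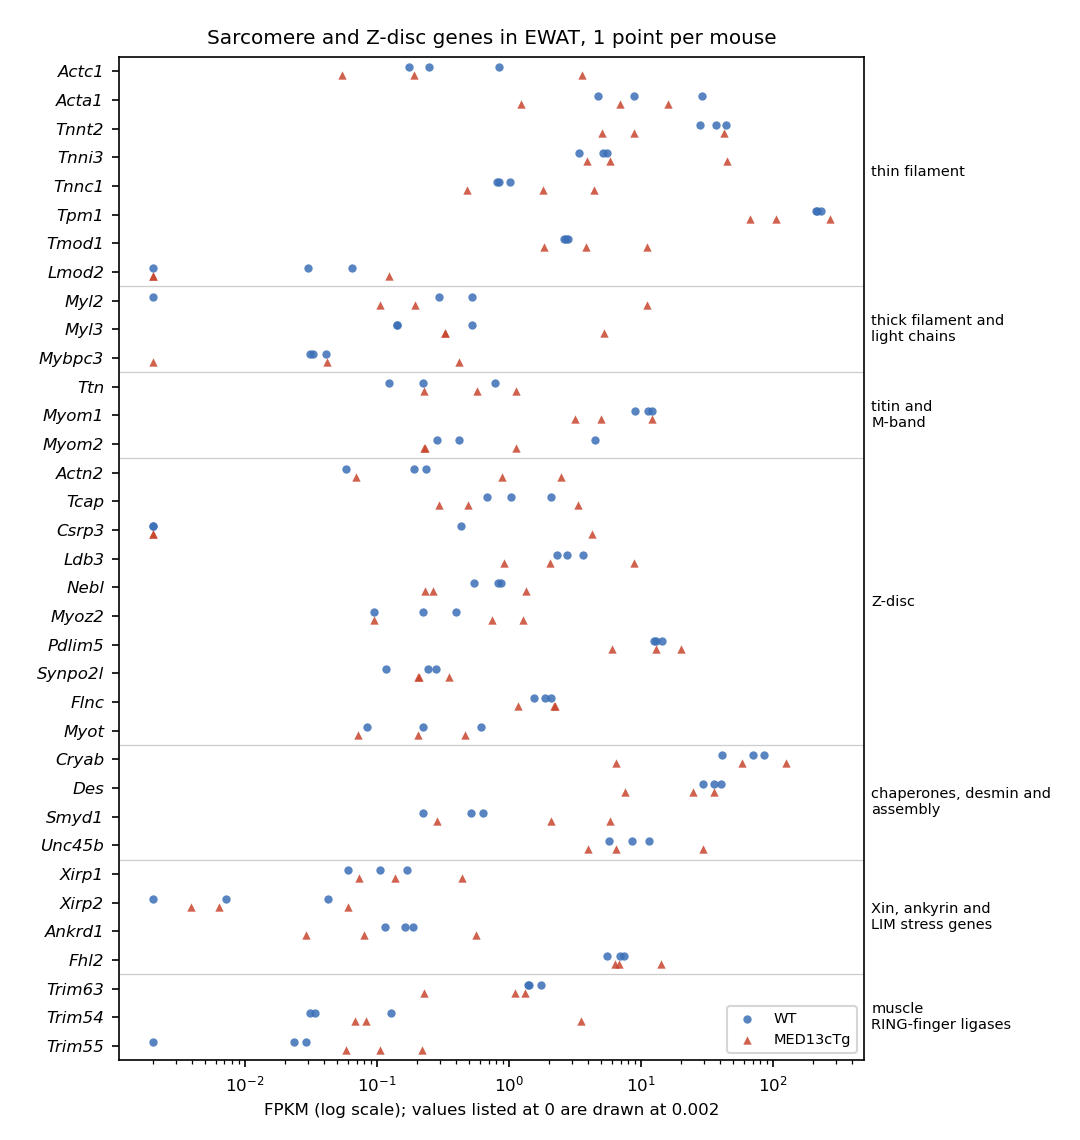
FPKM of each member in EWAT on a log scale, with 1 circle per WT mouse and 1 triangle per MED13cTg mouse, and values listed at 0 drawn at the left edge. Tpm1, Cryab, Tnnt2 and Des are the highest, and single MED13cTg libraries stand apart for many genes, such as Tnni3 at 45.1 FPKM and Myl2 at 11.2 FPKM.

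In EWAT 8 members had a mean of at least 10 FPKM and 23 were under 10 FPKM in every library. Tpm1, which many cell types make, was highest, at 211, 216 and 230 FPKM in WT mice, against 67.3, 105 and 271 FPKM in MED13cTg mice (log2 fold change -0.81, 95% interval -2.13 to 0.50, limma adjusted p = 0.738). Its low libraries were MED13cTg replicates 1 and 2, and the log2 fold change ran from -1.37 without MED13cTg replicate 3 to -0.38 without MED13cTg replicate 1. Cryab was at 41.1, 84.8 and 70 FPKM in WT mice, against 6.52, 126 and 58.1 FPKM in MED13cTg mice (log2 fold change -0.73, limma adjusted p = 0.796), and both the lowest and the highest value were MED13cTg. Des, which smooth muscle also makes, was at 40.3, 29.4 and 36 FPKM in WT mice, against 7.61, 24.8 and 35.9 FPKM in MED13cTg mice (log2 fold change -0.83, limma adjusted p = 0.738, and -0.22 without MED13cTg replicate 1). Tnnt2 was at 37.1, 28.1 and 43.9 FPKM in WT mice, against 8.85, 5.08 and 42.5 FPKM in MED13cTg mice (log2 fold change -1.42, 95% interval -3.27 to 0.43, limma adjusted p = 0.738). MED13cTg replicate 3 stood with WT for Tnnt2, and the other 2 MED13cTg libraries were low. Pdlim5 was at 12.6, 14.5 and 12.9 FPKM in WT mice, against 5.99, 20.2 and 12.9 FPKM in MED13cTg mice (log2 fold change -0.17, limma adjusted p = 0.883).

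Of the 35 members 20 had a mean of at least 1 FPKM in EWAT and were tested, and none passed (limma adjusted p 0.738 to 0.998), against 0.0134% of the 14967 genes tested (2 genes, or 0 genes with the replicate number as a block). None of the 20 had an unadjusted p under 0.05 (limma), against 187 of the 14967 genes. That share of all genes is so small that finding none is close to the background. One tested member (5%) was without overlap, against 12.7% of all genes: Trim63 at 1.4, 1.42 and 1.76 FPKM in WT mice, against 1.12, 0.228 and 1.32 FPKM in MED13cTg mice (log2 fold change -0.47, SE 0.40, limma adjusted p = 0.738). Trim55 also did not overlap, at 0.0236, 0.0292 and 0 FPKM in WT mice, against 0.221, 0.106 and 0.0587 FPKM in MED13cTg mice, but was too low to be tested. Of the second list 31 entries were tested in EWAT and none passed (smallest limma adjusted p = 0.738). None of the 31 had an unadjusted p under 0.05, which is close to the same small background of 187 of the 14967 genes. Med13 itself was at 9.43 to 10.9 FPKM in WT and 7.84 to 11 FPKM in MED13cTg EWAT.

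The EWAT libraries differed among themselves in ways that touch these values. By rank correlation over the genes tested, MED13cTg replicate 1 reached at most 0.494 with any other library. MED13cTg replicate 2 reached 0.852, and WT replicates and MED13cTg replicate 3 reached 0.968 to 0.972. The depth relative to WT replicate 1 was 0.661 and 0.756 for MED13cTg replicates 1 and 2, and 0.873 to 0.924 for the remaining libraries. The part of these differences in the comparison was not tested. MED13cTg replicate 2 was the highest library for 15 members, with 11.2 FPKM for Myl2, 5.29 for Myl3, 4.39 for Tnnc1, 4.28 for Csrp3 and 3.55 for Actc1, each of which was under 2 FPKM in the remaining 5 libraries. MED13cTg replicate 1 was the highest for 10 members, with 45.1 FPKM for Tnni3 against 3.41 to 5.83 FPKM elsewhere, 11.1 for Tmod1, 5.86 for Smyd1 and 3.5 for Trim54. Each member has only 1 highest library, so these counts cannot share genes, but some members were raised in both libraries. Smyd1 was at 5.86 and 2.09 FPKM in MED13cTg replicates 1 and 2, against 0.225 to 0.632 FPKM elsewhere. Actn2 was at 2.47 and 0.887 FPKM in them, against 0.0582 to 0.237 FPKM elsewhere. Of the 17 members under 1 FPKM in all 3 WT libraries and in MED13cTg replicate 3, 9 were highest in MED13cTg replicate 2 and 7 in MED13cTg replicate 1. Choosing these 17 for low values in WT and MED13cTg replicate 3 largely sets that outcome. The same count over all genes was not made.

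Markers of other cell types differed between the same libraries. The 5 testis germ cell markers summed to 12579 FPKM in MED13cTg replicate 1 and to 5.55 to 319 FPKM in the other 5. The 6 epididymis markers summed to 45013 to 58179 FPKM in WT and to 6964, 147 and 42956 FPKM in MED13cTg EWAT, and the 5 adipocyte markers to 1048 to 2455 FPKM in WT mice, against 125, 7095 and 1249 FPKM in MED13cTg mice. Fast skeletal muscle markers summed to 174 FPKM in WT replicate 2 and 208 FPKM in MED13cTg replicate 2 and to 16.3 to 43.3 FPKM elsewhere, and Acta1 was highest in the same libraries, at 28.9 and 15.9 FPKM. Smooth muscle markers summed to 586 to 773 FPKM in WT mice, against 184, 362 and 799 FPKM in MED13cTg mice, low in the 2 libraries in which Tpm1, Tnnt2 and Des were low. One of these markers, Smtn, went the other way in MED13cTg replicate 2, at 92.8 FPKM against 57.7 to 78.5 FPKM in WT mice. The 8 ventricular myocyte markers, some of them members, summed to 44.2, 36 and 49.3 FPKM in WT mice, against 61.4, 32.3 and 48.1 FPKM in MED13cTg mice. Among them Nppb was listed at 0 in all EWAT libraries except MED13cTg replicate 2, at 0.285 FPKM. The joined entry of Myh6 and Myh7 was above WT without overlap, at 0.752, 1.02 and 0.101 FPKM, against 0.0882, 0.055 and 0.0514 FPKM in WT mice. Ryr2 was below WT without overlap, at 0.309, 0.287 and 0.461 FPKM, against 0.492, 0.562 and 0.488 FPKM. The remaining ventricular markers overlapped. The part of these cells in the levels of the members was not tested.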

How the data were processed

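RNA of heart ventricles and EWAT, isolated with TRIzol, was made into Illumina TruSeq libraries from 1 ug of total RNA per the labels. The authors processed reads with TopHat and Cufflinks at default settings on mm9 and deposited 1 FPKM table per tissue, with a value per gene and library. Versions, strand and read counts are not given in the sources used here, so the depth is unknown. Intervals rest on the spread between libraries, each taken as 1 mouse. Entries that join several symbols were split at commas to find members. From the deposited FPKM values, log2(FPKM + 1) was fitted per tissue with limma 3.58.1 in R 4.3.3 (mean-variance trend, 3 WT and 3 MED13cTg libraries), over genes whose mean reached 1 FPKM, with Benjamini-Hochberg adjustment over all genes tested. A fold change on this scale understates that of low genes. The scripts were tested on simulated data. Whether sample numbers pair libraries was judged from the correlation of same-numbered deviations from the genotype means. In EWAT these correlations were 0.347, 0.304 and 0.144, against -0.417 to 0.168 between different numbers. The lowest of them lay within that range, so a pairing in EWAT remains uncertain. The main fit treated libraries as unpaired in both tissues, and the replicate number was used as a block in an alternative. The alternatives were another pseudocount, filter, scaling, variance model or weighting, the replicate block, each library left out, joined entries left out, and the ventricle cluster as a covariate.

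Values are given in full for members without overlap in ventricles, the member with the highest WT level in each role, the 3 largest and 3 smallest log2 fold changes, the 5 highest members in EWAT, and 5 genes of the second list with the largest change without overlap. Other genes were named after their values were seen. The members and lists were chosen with earlier results of these data known. Start coordinates in the tables count from 0 (7 members then have the RefSeq gene length) and were raised by 1. One more column of values in the EWAT table was not used. It was not stated that libraries are separate extractions, so p-values and intervals rest on the spread between these libraries.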

Additional observations from a re-analysis of the deposited data

How the results depend on the processing

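No member passed the test under any of the 16 alternatives in ventricles or 15 in EWAT, nor did a gene of the second list under those run for it, which were all but leaving out joined entries. The cause of each shift below was not tested. In ventricles the count of all genes called, 7 (3 higher, 4 lower), was 15 (7 higher, 8 lower) with array weights, 31 (19 higher, 12 lower) without a filter and 3 (1 lower) with a filter at 5 FPKM. Leaving out 1 library gave 4 (without MED13cTg replicate 1 or 2) to 9 (without WT replicate 3), with 3 to 6 higher and 0 to 4 lower. The log2 fold change turned for Fhl2 with array weights (0.01), for Ttn (-0.08) and Cryab (-0.02) with the cluster covariate, for Tpm1 (0.03, where without another library it reached -0.27) without MED13cTg replicate 1, for Ttn (-0.05) and Cryab (-0.07, where without another library it reached 0.34) without MED13cTg replicate 2, for Cryab (-0.02) without WT replicate 2, and for Ttn (-0.03) without WT replicate 3. None of these genes was called. The refits counted are those of Med13 and of the genes given in full by the rule above, and the other 336 kept their direction. Without 1 library the log2 fold change also moved by over 1.5 times with its direction kept, the extreme values being those of Actc1 (0.09 without WT replicate 2), Myl2 (0.23 without MED13cTg replicate 2), Ttn (0.26 without WT replicate 1), Myom2 (-0.29 without MED13cTg replicate 1), Fhl2 (-0.03 without WT replicate 1 and -0.41 without WT replicate 2), Xirp1 (-0.72 without WT replicate 1 and -0.19 without WT replicate 3), Trim63 (-0.63 without WT replicate 1 and -0.14 without WT replicate 2), Trim55 (-1.04 without WT replicate 1 and -0.15 without WT replicate 3) and Tnni1 (-0.44 without WT replicate 1). The median of the members lay between -0.09 and 0.03 without 1 library and was 0.01 with quantile normalization. The refits of the remaining members were not counted above. Some of these members also turned over the alternatives, such as Nebl (-1.07 to 0.23), Acta1 (-0.56 to 0.10) and Tnni3 (-0.11 to 0.25).

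In EWAT the count of genes called, 2 (both lower), was 0 with array weights and 1 without a filter (1 lower). Leaving out 1 library gave 1 (without MED13cTg replicate 2 or 3) to 5 (without WT replicate 1 or 3), with 0 to 2 higher and 0 to 4 lower. The median of the members moved from -0.06 to -0.75 with a filter at 5 FPKM, and ran from -0.47 without MED13cTg replicate 2 to 0.11 without MED13cTg replicate 1. Without MED13cTg replicate 3 the log2 fold change was -1.37 for Tpm1, -1.27 for Des, -2.25 for Tnnt2 and -0.64 for Trim63, and it was -0.38 for Tpm1 and -0.22 for Des without MED13cTg replicate 1, and -0.83 for Tnnt2 and -0.18 for Trim63 without MED13cTg replicate 2. Pdlim5 turned to 0.10 with array weights and to 0.26 without MED13cTg replicate 1, and Cryab to 0.45 without that library (without MED13cTg replicate 2 they were -0.54 and -1.59). The other 80 refits of the 5 highest members in EWAT and of Trim63 kept their direction, and those of other members were not counted.

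With the replicate block, the count of genes called was 4 in ventricles (3 higher, 1 lower) and 0 in EWAT. In ventricles same-numbered libraries correlated at 0.085, -0.192 and 0.140, so that the numbers were not taken to pair them. The block changed no call among the members, and their medians with it were -0.03 in ventricles and -0.06 in EWAT.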
